A study of Mus musculus with 2 samples.

Results

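The genes of the major histocompatibility complex (MHC, called H2 in the mouse) and of antigen processing were read in kidney glomeruli of male C57BL/6J mice. GC-A, the guanylyl cyclase receptor of natriuretic peptides, and the stress kinase p38 were floxed in all of them. The genes described were taken by symbol: every gene whose symbol begins with H2-, and 18 named genes of peptide generation, transport, loading and MHC regulation. Of 18193 genes with a probe set of their own on the array, 40 met this rule, through 75 of 34945 probe sets. Psme2 had only a probe set that also names another gene and is not among them. The members, and the gene lists set beside them below, were chosen with earlier results of these data known. The first array held RNA from GC-A fl/fl p38 fl/fl mice with Nephrin-Cre (Cre/+), in which the nephrin promoter drives Cre in podocytes (the double knockout), and the other from GC-A fl/fl p38 fl/fl mice labelled Nephrin-Cre (+/+), read here as without Cre (the floxed control). Both genotypes were 2 months old and had received 3 weeks of a 6% NaCl diet with aldosterone from a minipump (0.2 µg/kg/min), so every value belongs to mice under this load, and no untreated group enters. With 1 array per genotype there is no replicate error and no test between animals, and the labels do not give the number of mice behind an array. Higher and lower describe the double knockout array, and a pair of signals is given as double knockout against control.

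MHC class I molecules sit on nearly all nucleated cells. They pair a heavy chain with β2-microglobulin and present peptides cut in the cytosol by the proteasome, carried into the endoplasmic reticulum by the TAP transporter and fitted with the help of tapasin. MHC class II molecules are αβ dimers made mainly by professional antigen presenting cells, assembled on the invariant chain Cd74 and loaded in endosomes with the help of the DM molecule. In the kidney, class II is best known from resident macrophages and dendritic cells, and interferon-γ raises both classes, through the regulators Nlrc5 for class I and Ciita for class II. The heavy chain genes are close copies of each other, so a probe set named for one of them may also read its relatives.

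The upstream sequences of members of the 2 classes are shown as background, and their part in the differences was not tested. H2-Q10 is among them because it had the lowest difference of all members. The sequences are the 200 bases before the annotated start of each gene, read in the direction of the gene, from RefSeq promoter windows of build GRCm38.p6. H2-Aa lies at chr17:34287824-34288023 on the minus strand, H2-Eb1 at chr17:34305667-34305866 on the plus strand, H2-K1 at chr17:34000348-34000547 on the minus strand, H2-D1 at chr17:35262894-35263093 on the plus strand and H2-Q10 at chr17:35469889-35470088 on the plus strand. The last sequence is the whole stretch of 225 bases between the starts of Psmb9 and Tap1, which run in opposite directions, at chr17:34187331-34187555, read towards Tap1. Capitals mark matches, on either strand, to the searched motifs described after the sequences.
H2-Aa: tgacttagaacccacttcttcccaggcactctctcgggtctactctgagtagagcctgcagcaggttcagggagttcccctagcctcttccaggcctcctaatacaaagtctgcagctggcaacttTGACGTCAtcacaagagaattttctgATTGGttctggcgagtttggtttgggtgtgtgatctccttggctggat
H2-Eb1: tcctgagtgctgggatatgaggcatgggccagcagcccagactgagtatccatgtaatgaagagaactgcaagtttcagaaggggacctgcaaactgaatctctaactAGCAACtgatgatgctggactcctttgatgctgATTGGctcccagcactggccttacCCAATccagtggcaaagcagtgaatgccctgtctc
H2-K1: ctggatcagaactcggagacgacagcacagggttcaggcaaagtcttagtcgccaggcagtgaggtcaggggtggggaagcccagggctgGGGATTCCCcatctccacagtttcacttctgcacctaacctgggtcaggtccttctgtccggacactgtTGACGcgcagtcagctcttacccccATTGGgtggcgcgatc
H2-D1: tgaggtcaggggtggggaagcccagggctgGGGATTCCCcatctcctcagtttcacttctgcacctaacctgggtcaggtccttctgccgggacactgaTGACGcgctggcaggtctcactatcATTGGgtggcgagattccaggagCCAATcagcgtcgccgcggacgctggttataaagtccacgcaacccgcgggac
H2-Q10: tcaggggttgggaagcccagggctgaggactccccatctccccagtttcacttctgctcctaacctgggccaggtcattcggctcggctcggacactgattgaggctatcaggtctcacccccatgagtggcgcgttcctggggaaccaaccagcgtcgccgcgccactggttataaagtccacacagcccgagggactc
Psmb9 to Tap1: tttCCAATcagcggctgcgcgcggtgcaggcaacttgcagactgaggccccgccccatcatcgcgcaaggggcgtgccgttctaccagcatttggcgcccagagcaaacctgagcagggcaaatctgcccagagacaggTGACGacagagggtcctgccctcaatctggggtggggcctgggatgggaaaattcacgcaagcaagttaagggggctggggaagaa

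Exact letters of 6 motifs were searched on both strands in the RefSeq windows, which run from 250 bases before to 50 bases after a start. A window was held for 24 of the measured class I, class II and pathway genes. A gene with more than 1 window counted when any of them matched, while the percentages are shares of single windows. H2-K1 had 2 windows, of which 1 was printed and aligned. CCAAT, the core of the Y box bound by NF-Y, was in a window of 7 of 7 class II molecules and 5 of 6 class I molecules, against 37.4% of all 32851 windows. AGCAAC, from the X box bound by the RFX complex, was in 4 of 7 class II and 1 of 6 class I molecules, against 14.8%. TGACG, part of the cyclic AMP response element and of the X2 box, was in 1 of 7 class II and 4 of 6 class I molecules, against 20.8%; in H2-Aa its matches on both strands overlap. GGGATTCCC, a form of the κB site of class I genes, was in 2 of 6 class I molecules, H2-K1 and H2-D1, against 0.353%. The interferon element GAAANNGAAA was in 1 of 6 class I molecules (B2m) and 2 of 11 pathway genes (Erap1, Psme1), against 3.44% of windows. The spaced palindrome TTCNNNGAA was in H2-M3, H2-DMb2 and Psmb8, against 8.30%. These are 1 of 6 class I molecules, 1 of 7 class II molecules and 1 of 11 pathway genes. H2-Q10 held none of the 6 in its window, and 86.4% of 191 aligned bases of its printed sequence were identical to those of H2-D1. For comparison, H2-D1 and H2-K1 were identical at 91.4% of 139 aligned bases. A match is a string of letters and does not show that a factor binds there.

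The measured values were MAS5 signals, in which each array is scaled to one mean. A signal below 52.7, the mean over the arrays of their 40th percentiles, was raised to that floor before taking log2, and a gene counted as measured when at least 1 array reached it. Of the 40 genes 34 were measured and 29 were above the floor in both arrays. H2-D4, H2-M10.1, H2-M9, H2-T18, H2-T3 and H2-Ea were below it in both. H2-Ea, the α chain of the I-E molecule, is known not to be transcribed in C57BL/6 mice, and its 3 probe sets read between 5.73 and 18.7. A gene that reached the floor in 1 array only had to differ, so counts are given for both definitions where they matter.

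Among the 34 measured genes 26 were higher in the double knockout and 8 lower, with a median log2 difference of 0.33. Over all 13290 measured genes, 56.1% were higher and the median was 0.07. H2-D1 and Cd74 stood 2-fold or more above the control, which is 2 of 34 against 3.53% of all genes. Neither reached 2-fold when the arrays were centred on their median or 75th percentile, and H2-D1 stood at 0.34 or 0.42 with other choices among its probe sets. H2-Q10 stood 2-fold or more below it, 1 of 34 against 2.87%. At 1.5-fold, 10 of 34 were higher, against 13.7% of all genes, and 1 was lower, against 10.0%. Most members thus stood above the control by less than 2-fold. Genes at least 1.5-fold higher were H2-D1, Cd74, H2-Aa, Psmb9, H2-DMb2, Psmb10, H2-Eb1, Tap1, H2-M3 and H2-DMa.

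**Figure D1:**
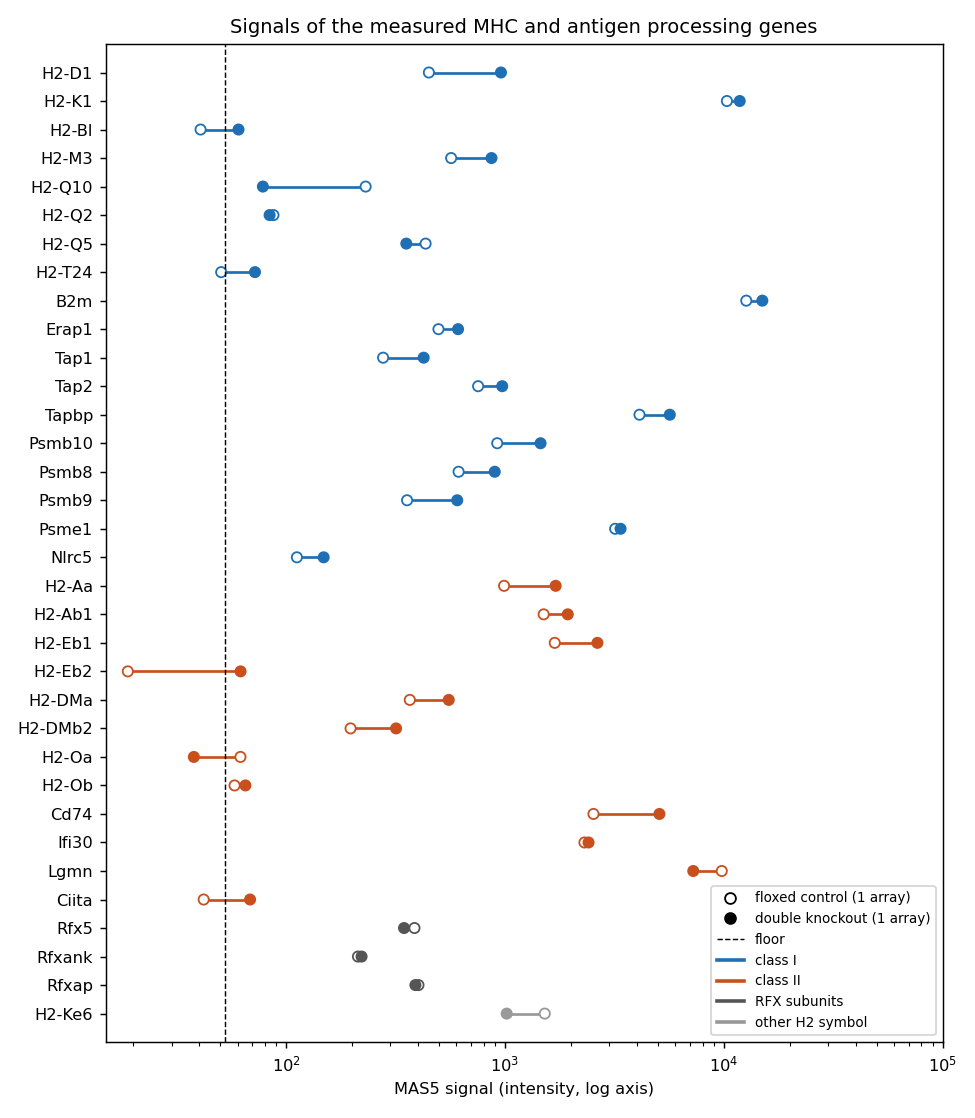
MAS5 signal (intensity, log axis) of each of the 34 measured genes in the floxed control (open circle) and the double knockout (filled circle), 1 array each, coloured by class, with the floor as a dashed line. The filled circle lies to the right for 26 genes; H2-Q10 shows the widest gap to the left among genes above the floor in both arrays.

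The classical class II chains were higher in the double knockout. H2-Aa, the α chain of the I-A molecule, had signals of 1706 against 991, a log2 difference of 0.78. Its other 3 probe sets gave 0.64, 0.68 and 0.86, so all 4 stood at least 1.5-fold above the control. The β chain of the same molecule, H2-Ab1, read 1937 against 1503 (0.37) in the probe set that represents it and 1811 against 946 (0.94) and 1254 against 650 (0.95) in its other sets. The 3 sets of H2-Ab1 had one direction and differed in size. H2-Eb1, the β chain of I-E, read 2647 against 1690, a log2 difference of 0.65. The related β chain gene H2-Eb2 read 62.0 against 18.9, so that its control signal was below the floor and its difference of 0.23 is a lower bound. A floor set at the 25th percentile gave 1.36.

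Cd74, the invariant chain that occupies the class II groove until the endosome, had the largest difference among the class II genes above the floor in both arrays. Its single probe set read 5082 against 2539, which is 2.00-fold and lies just past the 2-fold size. The DM molecule exchanges the remnant of the invariant chain for peptide. Its α chain H2-DMa read 554 against 368 (0.59) and its β chain H2-DMb2 read 318 against 197 (0.69), with 0.73 and 0.88 in the other H2-DMb2 probe sets. A second H2-DMa probe set was below the floor in both arrays. H2-Oa and H2-Ob encode the DO molecule, a modulator of DM found mainly in B cells. H2-Oa read 37.9 against 61.9, at least 1.18-fold lower with the double knockout below the floor, and H2-Ob read 65.2 against 58.2 (0.16), just above it.

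Over the class II molecules together, 8 of 9 measured genes and all 7 that were above the floor in both arrays were higher in the double knockout. Over all measured genes 56.1% were higher. By probe set, 15 of 16 were higher, against 56.8% of all measured probe sets with 1 gene, and 12 of 16 were at least 1.5-fold higher, against 13.3%. The probe sets of H2-Aa, H2-Ab1 and H2-DMb2 are repeated readings of the same genes and not separate evidence.

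The genes that act around class II had no common direction. Ciita, the transactivator on which class II transcription depends, read 68.5 against 42.0, so its difference of 0.38 is a lower bound next to the floor, and a floor set at the 25th percentile gave 0.70. Its other 2 probe sets were below the floor in both arrays. The RFX subunits, which bind the X box of both classes, differed little: Rfx5 read 346 against 386 (-0.16), Rfxank 221 against 213 (0.05) and Rfxap 390 against 403 (-0.05). Under the other scalings of the arrays all 3 stood below 0, from -0.04 to -0.28 when glomerular recentring is left aside. Ifi30, a thiol reductase that unfolds antigen in the endosome, read 2411 against 2309 (0.06). Lgmn, the endosomal protease legumain, which the kidney tubule also makes in quantity, was lower, at 7256 against 9793 (-0.43), and at -0.22 after quantile normalization.

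The class I molecules were less uniform. H2-K1, a classical heavy chain, read 11830 against 10338, a log2 difference of 0.19, and its other probe sets gave 0.34, 0.35 and 0.61. All 4 H2-K1 sets carry the suffix _x_at, which marks sets whose probes may hybridise to other genes. H2-D1, the other classical chain, depended on the probe set. The set that represents it read 959 against 449 (1.09, 2.14-fold), while the sets reading above 5000 gave 11320 against 9153 (0.31) and 11700 against 9242 (0.34). Of the remaining measured H2-D1 sets, one read 4935 against 2891 (0.77), one 539 against 393 (0.45) and one 79.3 against 106 (-0.42), and 3 sets were below the floor. Of the 6 measured H2-D1 sets 5 were thus higher, and 1 of them passed 2-fold. B2m, the light chain of all class I molecules, read 15007 against 12675 (0.24) and 14320 against 13059 (0.13).

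The non-classical heavy chains pointed in both directions. H2-M3, which presents formylated peptides of bacteria and mitochondria, read 868 against 568 (0.61). H2-Q10, a heavy chain secreted mainly by the liver, was the lowest of all members, at 78.4 against 231 (-1.56, 2.95-fold lower). Its level in the double knockout was close to the floor, and with the floor at the 60th percentile the difference was -0.36. H2-Q5 read 354 against 434 (-0.29) and H2-Q2 84.1 against 87.6 (-0.06). H2-T24 and H2-Bl, at 72.1 and 60.6 in the double knockout, were below the floor in the control, with lower bounds of 0.45 and 0.20. Of the 9 measured class I molecules 6 were higher and 3 lower, or 4 and 3 among the 7 above the floor in both arrays. Over all measured genes 56.1% were higher, so these counts lie near that share. The lower ones were H2-Q2, H2-Q5 and H2-Q10, the 3 measured Q genes with a probe set of their own. Among probe sets shared by other Q genes, that of H2-Q7 and H2-Q9 stood at 0.21 and that of H2-Q4, H2-Q6 and H2-Q8 at 0.48, while that of H2-Q6 and H2-Q8 stood at -0.12.

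**Figure D2:**
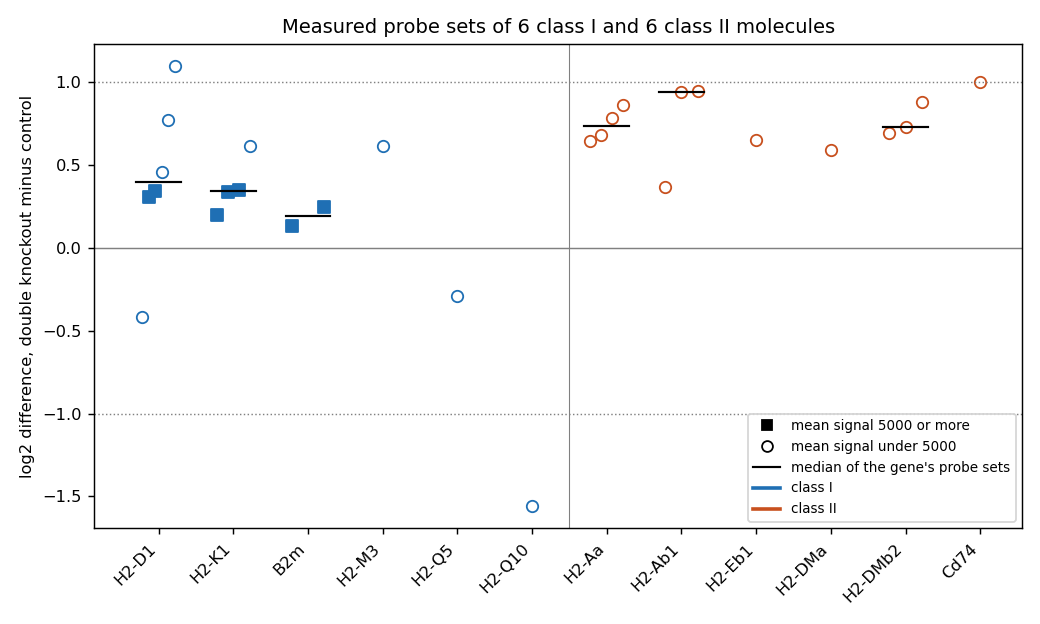
Log2 difference of the measured probe sets of 6 class I and 6 class II molecules (double knockout minus control, 1 array each); squares have a mean signal of 5000 or more, open circles less, bars are medians of a gene's sets and dotted lines mark 2-fold. Class II sets shown, all open circles, lie between 0.37 and 1.0. The class I squares lie between 0.13 and 0.35 and the class I open circles between -1.56 and 1.09. Left out are H2-Oa (-0.23), H2-Ob (0.16) and H2-Eb2 (0.23) of class II. H2-T24 (0.45), H2-Bl (0.20) and H2-Q2 (-0.06) of class I are also left out.

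Set side by side, the median log2 difference was 0.20 over the 9 measured class I molecules and 0.59 over the 9 class II molecules, so that class I stood 0.39 below class II. Among the 7 genes of each class above the floor in both arrays the medians were 0.19 and 0.65. No test is possible with 1 array per genotype. The probe sets of the classes also differed in signal: 7 class I probe sets and no class II set had a mean signal of 5000 or more, and over all 1123 measured probe sets in that range the median difference was -0.22, against 0.10 below 500 and 0.09 between 500 and 2000. The 7 class I sets there lay between 0.13 and 0.35. After removal of this trend of difference on signal the medians became 0.42 for class I and 0.47 for class II, a gap of -0.06, and quantile normalization gave the same -0.06. H2-K1 then stood at 0.43 and B2m at 0.52. In the range from 500 to 2000, the 2 class I probe sets read 0.61 and 1.09 and the 5 class II sets between 0.37 and 0.95. With the pathway genes added to each class, the medians were 0.39 over 18 class I genes and 0.37 over 12 class II genes, or 0.39 and 0.59 over the 16 and 9 above the floor in both arrays.

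**Figure D3:**
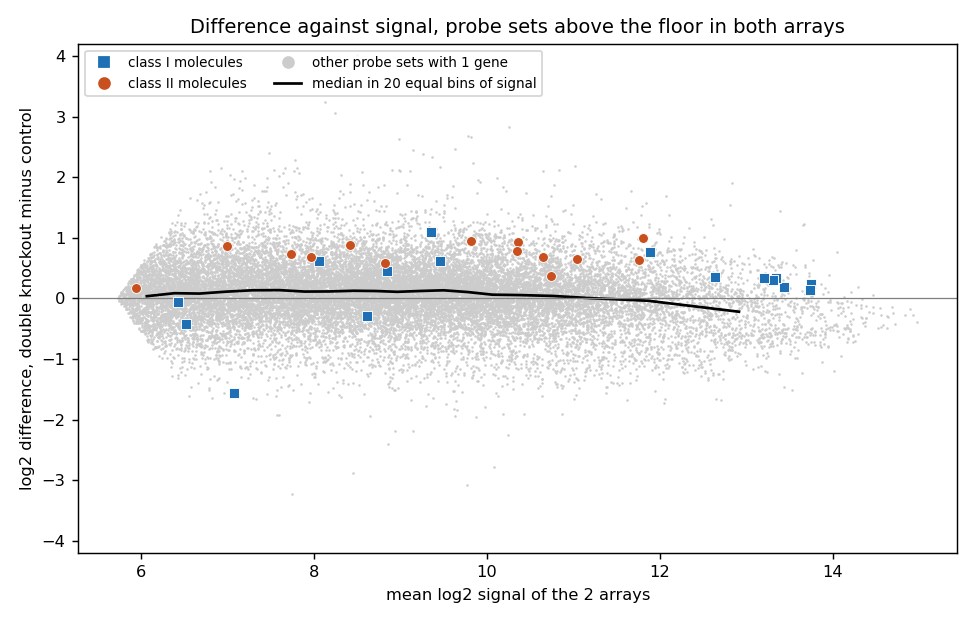
Log2 difference (double knockout minus control) against the mean log2 signal of the 2 arrays for probe sets with 1 gene above the floor in both; the black line joins medians of 20 equal bins. The line falls below 0 at high signal, where 7 class I sets and no class II set lie.

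The class I processing genes were higher: all 4 immunoproteasome genes, with a median of 0.60, and all 4 of peptide transport and loading, with a median of 0.41. Over all measured genes 56.1% were higher. Psmb8, Psmb9 and Psmb10 encode the catalytic subunits that replace Psmb5, Psmb6 and Psmb7 in the immunoproteasome. Psmb8 read 898 against 614 (0.55), Psmb9 606 against 357 (0.76) and Psmb10 1455 against 922 (0.66). Their constitutive counterparts were lower: Psmb5 at 4080 against 4983 (-0.29), Psmb6 at 3029 against 4006 (-0.40) and Psmb7 at 3561 against 5112 (-0.52). Relative to its counterpart, Psmb8 was 1.79-fold, Psmb9 2.24-fold and Psmb10 2.27-fold higher, a ratio that no scaling of whole arrays by one factor can alter. All 16 other proteasome subunits and caps on the list were lower, with a median of -0.19. The direction of that list held for 15 of 16 after quantile normalization or loess. Psme1, a subunit of the interferon-inducible PA28 cap, read 3377 against 3190 (0.08) and was just below 0 (-0.01) after centring on the median.

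Peptide transport and loading followed in the same direction. Tap1 read 425 against 278 (0.62) and Tap2 972 against 754 (0.37), which together form the peptide transporter. Tapbp, which encodes tapasin, read 5668 against 4120 (0.46) and 1389 against 1055 (0.40) in its 2 probe sets. Erap1, the peptidase that trims peptides in the endoplasmic reticulum, read 611 against 497 (0.30) and 600 against 379 (0.66). The 4 genes of this group were above 0 under the floor and under each scaling tried, except recentring on glomerular markers, where all 4 were below it. Nlrc5, the class I transactivator, read 149 against 112 (0.41). The general chaperones of the endoplasmic reticulum that also serve class I had a median of -0.02, with 4 of 9 above 0. This count was 6 after quantile normalization or removal of the signal trend and 1 after centring on the median or 75th percentile, so no direction can be given. Uggt1 (0.34), Pdia3 (-0.26) and P4hb (-0.18) differed most.

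Chromosome 17, which holds the H2 complex, carried 22 of the measured members, and 17 of them were higher, against 56.1% of all genes. Psmb9 and Tap1, which start 225 bases apart in opposite directions at the sequence shown above, differed by 0.76 and 0.62. Psmb8 and Tap2 follow next to them, and H2-DMa and H2-DMb2 stand on the other side. In gene order, the 6 measured members from H2-DMa to Tap2 were all higher, by 0.37 to 0.76, whichever class they serve. The measured members that follow, from H2-Ob to H2-D1, were higher as well, by 0.16 to 1.09. H2-Ke6, between H2-K1 and the class II genes, is named for its place in the complex and encodes a dehydrogenase of steroids and fatty acids, not an MHC molecule. It was lower, at 1019 against 1521 (-0.58). Of the 12 measured members on other chromosomes, 9 were higher, against the same 56.1%, among them B2m, Cd74 and Psmb10.

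**Figure D4:**
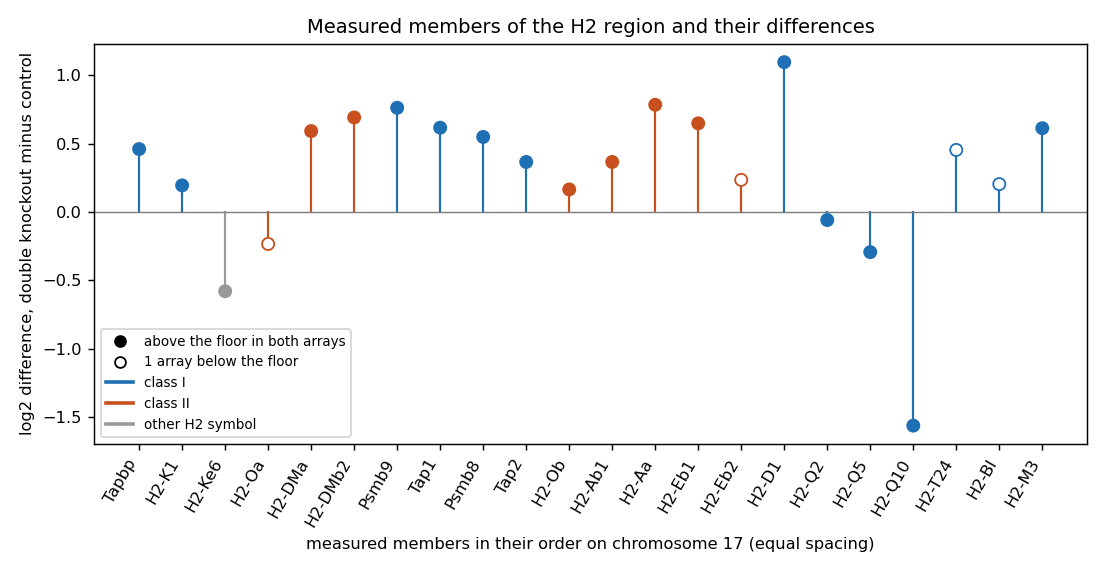
Log2 difference (double knockout minus control) of the 22 measured members on chromosome 17 in gene order, equally spaced; open circles had 1 array below the floor. The genes from H2-DMa to Tap2 lie between 0.37 and 0.76 and those from H2-Ob to H2-D1 between 0.16 and 1.09. H2-Q2, H2-Q5 and H2-Q10 lie side by side below 0.

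Other genes around antigen presentation were read from lists. Over all measured genes 56.1% were higher, which is the share to set beside each list. Of 19 measured interferon signalling and response genes 18 were higher, with a median of 0.23, and 15 were higher after centring on the median, with a median of 0.13. By size, 7 of 19 reached 1.5-fold, against 13.7% of all genes, and 1 of 19 reached 2-fold, against 3.53%. They were led by the GTPase gene Gbp2 at 966 against 482 (1.0), the interferon-γ receptor gene Ifngr1 at 2028 against 1078 (0.91) and Gbp3 at 670 against 385 (0.80). Of 13 endosomal proteases and membrane proteins outside the rule 4 were above 0, with a median of -0.12, but 7 were above 0 after quantile normalization or removal of the signal trend, so the list has no settled direction. Ctss, the cathepsin that degrades the invariant chain in antigen presenting cells, was the highest of them at 2274 against 1142 (0.99), while Lamp2 (-0.50) and Lamp1 (-0.49) were the lowest; the lowest value in the list was -0.25 after quantile normalization. Of 7 costimulatory molecules 5 were measured, all 5 of them higher by less than 1.5-fold, with a median of 0.42; Cd274 (0.52), Icosl (0.44) and Cd83 (0.42) differed most. Of factors that share MHC promoters with RFX, 6 of 7 were above 0, with a median of 0.46, led by Creb1 (0.62), Crebbp (0.60) and Nfyb (0.49).

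Class I-like molecules outside the H2 symbols went both ways. Procr, the endothelial protein C receptor, read 247 against 141 (0.80), and the lipid-presenting Cd1d1 read 364 against 214 (0.77). Azgp1, a secreted relative of the heavy chains, was lower at 476 against 1839 (-1.95). Fcgrt was lower as well, at 3155 against 4375 (-0.47), while Mr1 was higher, at 434 against 263 (0.72). Over the 6 measured genes 4 were higher, against 56.1% of all genes, and 3 of them at least 1.5-fold, against 13.7%.

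Markers of several cell types also differed between the 2 arrays. Over all measured genes 56.1% were higher. All 19 measured macrophage markers were higher, with a median of 0.87 and a summed signal of 21824 against 11716. Of these, 6 were at least 2-fold higher, against 3.53% of all genes. The largest differences were those of C1qc (1.44), Ccr2 (1.39) and, against a control signal below the floor, Aif1 (1.23). Dendritic cell markers had a median of 0.48 over 6 measured of 9, with summed signals of 1144 against 769 and the defining markers Xcr1, Ccr7 and Siglech below the floor; Cd209a (1.08), Itgax (0.85) and, as a lower bound against the floor, Clec10a (0.50) differed most. B cell markers had a median of 0.10 over 6 of 7 and summed 678 against 688, with Cd79a below the floor, and of 11 T and NK cell markers 6 were below it, Cd3d, Cd3e, Cd3g and Cd4 among them. The glomerular endothelium, which carries class I, had a median of 0.77 with all 16 markers higher, and podocyte markers had 0.57 with all 11 higher. Mesangial and mural markers had 0.79 with all 10 higher. Parietal cell markers had 1.02, the highest median of these lists, with 4 of 5 higher. Proximal tubule markers had a median of -0.82 and distal tubule and collecting duct markers -0.75, with all 16 and all 11 lower. Their summed signals were 154195 against 240843 and 42610.1 against 60638.5, beside 85851 against 62390.5 for the podocyte list. Tubule RNA was thus present on both arrays, with less signal in the double knockout. The lists differ in length, so these sums are not shares of the RNA. In such tissue RNA, fewer cells of a type and less RNA per cell cannot be told apart, and the part of these cells in the MHC differences was not tested.

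The values also depend on what they are set against. The median over 42 podocyte, endothelial, mesangial and parietal markers was 0.65, with 41 of them higher, and subtracting it from every gene put the class I molecules at -0.45 and the class II molecules at -0.06. Of 9 class I molecules 1 was still above 0, H2-D1 (0.44). Of 9 class II molecules 3 were, Cd74 (0.35), H2-Aa (0.13) and H2-DMb2 (0.04). Psmb9 (0.11) and Psmb10 (0.005) were above 0 as well. For H2-D1 this rests on the choice of probe set, since the mean over its sets was 0.42, less than the 0.65 subtracted. The gap between the classes is not touched by such a shift. All 11 podocyte markers were measured in the labelled tissue, with Nphs1, which encodes nephrin, at 8373 against 5320. Of the floxed genes, Npr1, which encodes GC-A, read 102 against 167 (-0.71), and Mapk14, taken as p38, 2607 against 2628 (-0.01) in its brightest probe set; where these sets lie relative to the floxed exons is not given in the sources used here.

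**Figure D5:**
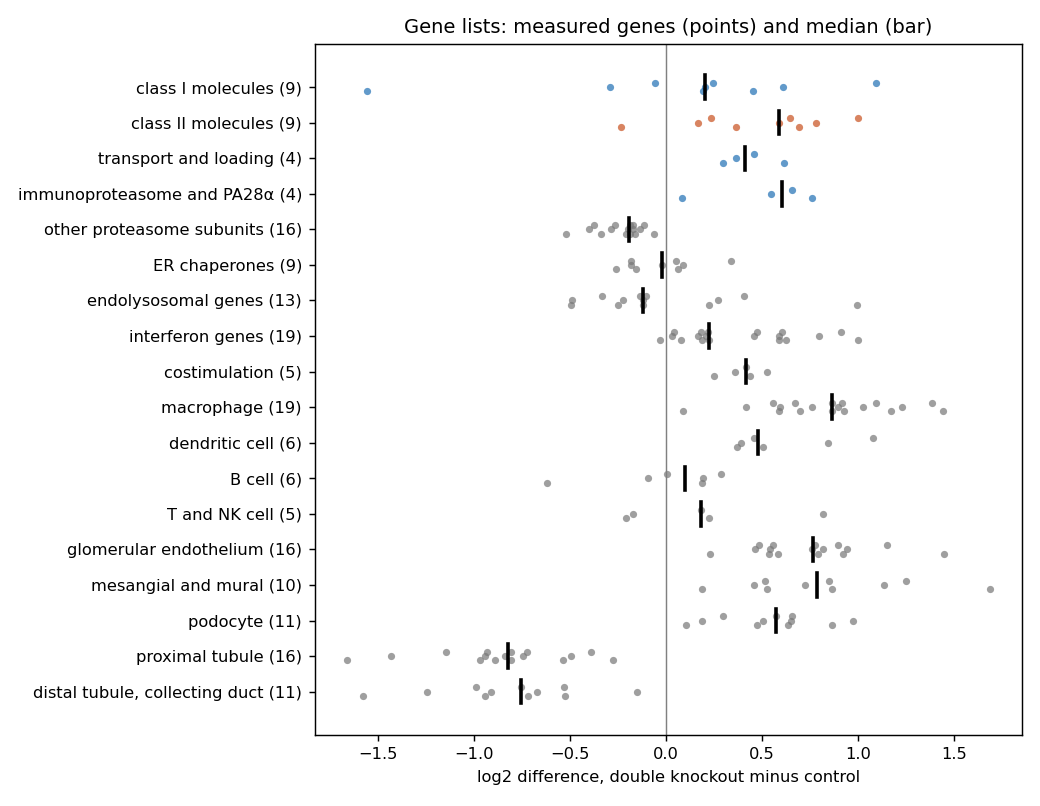
Log2 difference (double knockout minus control, 1 array each) of the measured genes of the class I and class II groups and of pathway and cell type marker lists, with the number measured in parentheses; points are genes and bars medians. The median of the class II molecules (0.59) lies between those of the B cell list (0.10) and the macrophage list (0.87). The dendritic cell (0.48), podocyte (0.57), endothelial (0.77) and mesangial (0.79) medians lie in that range too. The other proteasome subunits lie below 0. Parietal cell markers (median 1.02) are not plotted.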

How the data were processed

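Glomeruli were isolated by sieving and their RNA was labelled for 1-colour Affymetrix 3′ arrays, per the labels' protocols. The deposited intensity values, 1 per probe set and array, were made by the authors with MAS5, per the submitters' processing notes; the version is not given in the sources used here. The trimmed mean was 500.0 on both arrays. Values were used as deposited. Of 45101 probe sets, 64 controls were left out and 34945 named 1 gene in GEO's platform annotation; all 40 members matched RefSeq gene identifiers (GRCm38.p6), used for names, gene order and promoter windows. A gene was represented by its probe set of highest mean log2 signal, without _x_at sets where another existed. All measured members are named, and up to 3 genes of each other list, those of largest difference. Named beside them are the constitutive counterparts of the immunoproteasome subunits, Npr1, Mapk14, Fcgrt, Mr1 and the marker genes below the floor. Members and lists were chosen with earlier results of these data known. There is no replicate, so no test was made, and the number of arrays limits the precision; promoter identities came from local alignment. Alternatives covered floors, scalings, probe set choice, members and fold size. The steps were tested on simulated data. Python 3.11.15 with pandas 2.3.3 and statsmodels 0.14.6 was used.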

Additional observations from a re-analysis of the deposited data

How the results depend on the processing

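Class I molecules stood below class II molecules under every alternative run, by 0.06 to 0.46 on the log2 scale, against 0.39 as reported. Quantile normalization gave medians of 0.42 and 0.48 (class I minus class II -0.064), removal of a loess trend on signal 0.42 and 0.47 (-0.059), and probe sets without the suffixes _x_at, _s_at and _a_at 0.33 and 0.41 (-0.084). Recentring on glomerular markers, which shifts all genes by -0.65, reversed both medians, to -0.45 and -0.062. Such a shift cannot alter the gap between the classes. Centring on the median or 75th percentile, with 1 factor per array, can alter it only through genes at the floor, and gave -0.35. Scalings other than recentring shifted the median of all genes by -0.06 to -0.09.

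With pathway genes the classes differed by 0.01 as reported. Lowering the floor to the 25th percentile gave -0.29, raising it to the 60th gave -0.21, and the difference was -0.19 with no floor, -0.15 with a pseudocount of 32, -0.13 with the probe set of median difference, -0.21 over genes above the floor in both arrays and 0.22 with suffix-free probe sets, so it has no settled sign.

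The count of members at least 2-fold higher, 2 as reported, was 1 with the pseudocount, loess, the mean over probe sets, the probe set of median difference, suffix-free sets, the brightest set with _x_at included, or without H2-D1. It was 0 with median or 75th percentile centring, glomerular recentring or at 3-fold, and 10 at 1.5-fold. A floor set at the 25th percentile and no floor each gave 3, where H2-Eb2 stood at 1.36 and 1.71. The count at least 2-fold lower, 1 as reported, was 0 with the higher floor, suffix-free sets, at 3-fold or without H2-Q10, and 3 with glomerular recentring. H2-D1 was 0.42 as the mean over its probe sets and 0.34 with the set of median difference. The alternatives without H2-Q10, without H2-D1 and with probe sets of several genes were chosen after seeing the data. No paired analysis was possible because each genotype has 1 array.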

Other observations

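A further 17 probe sets name a member together with another gene and have no part in the gene counts; signals are again given as double knockout against control. Of 12 that name several class I molecules, 8 were measured, with a median log2 difference of 0.18, a range from -0.70 to 0.86, and 5 above 0. The set shared by H2-K1 and H2-D1 read 4100 against 2260 (0.86). The H2-Q6 and H2-Q8 set read 12880 against 13993 (-0.12), while a set of H2-Q4, H2-Q6 and H2-Q8 read 5488 against 3938 (0.48), so sets that name the same Q genes differed in direction. The H2-Q7 and H2-Q9 set read 7643 against 6599 (0.21). H2-T23, which presents leader peptides of other class I chains to NK cells, was read with a pseudogene by a set at 5069 against 3950 (0.36) and by another at 101 against 163 (-0.70). The 2 measured class II sets, both of H2-DMb1 and H2-DMb2, read 683 against 469 (0.54) and 1199 against 875 (0.45). Psme2, read with Psme2b, stood at 2327 against 1870 (0.31).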
